A study of Mus musculus with 10 samples.

Results

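The genes described here encode the laminins of basement membranes and the proteins that tie laminin into the sheet: the alpha chain genes Lama2, Lama3, Lama4 and Lama5, the beta chain genes Lamb1 and Lamb2, the gamma chain gene Lamc1, the nidogen genes Nid1 and Nid2, and the perlecan gene Hspg2. They were taken by symbol, and all 10 were found by NCBI Gene number among the 27179 genes of the count table. Lama4 was chosen by its CPM in these same libraries, because the LKO and control values do not overlap, so its difference between the groups is a description and carries no test. The other 9 were listed with it as one family.

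Livers came from male C57BL/6 mice whose Lpcat3 alleles were both floxed (Lpcat3f/f). In the LKO group the mice also carried Albumin-Cre, a Cre recombinase under the albumin promoter, which is active in hepatocytes and deletes Lpcat3, a gene of membrane phospholipid remodelling, in those cells. Control mice carried the same floxed alleles without Cre. Both groups had eaten a NASH diet, which produces fatty liver with inflammation, for 12 weeks, and there were 5 mice with 1 library each in either group. Ages are not given in the labels. Liver cells in which the Cre is not active keep Lpcat3, but Lpcat3 was not measured by cell type here. Whole liver RNA was sequenced, so fewer cells of a type and less RNA per cell cannot be told apart in any value below.

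A laminin is a trimer of an alpha, a beta and a gamma chain. Cells secrete the trimers, receptors such as integrins and dystroglycan hold them at the surface, nidogens join them to the network of type IV collagen, and perlecan, a heparan sulfate proteoglycan, joins both networks. The alpha chain decides most of the receptor binding, and the one encoded by Lama4 is short, lacks the amino-terminal domain through which other laminins polymerise, and is best known from the walls of blood vessels. In healthy liver, bile ducts, portal vessels and nerves rest on a full basement membrane, whereas the sinusoids have only a sparse, discontinuous one, and laminin deposits along them are known from fibrotic liver.

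The libraries held 26914124 (control 4) to 46727182 (control 5) counts, and 15226 genes passed the filter on low counts, all 10 of these among them. Levels are given as CPM, which are counts divided by the library total and put on a common scale of 1e6, by edgeR's TMM factors. Lpcat3, the deleted gene, lay between 25.5 and 38.5 CPM in LKO and between 94.1 and 124 CPM in control, so every library fitted its label. Control 4 and LKO 3 stood apart from their groups, and results that rest on them are given with and without them: control 4 lay among the LKO libraries on the first principal component (30.2, other controls -52.7 to -30.1, LKO -8.03 to 82.3), and LKO 3 lay at its far end. Each title also has a code (A54, A55 or A67) with no stated meaning. A55 holds controls only and A67 LKO only, so within one code the groups can be set side by side only in A54, which holds LKO 1, LKO 2 and control 1. All 8 hepatocyte markers were detected in every library, with Alb at 23063 to 41706 CPM, as the liver label implies.

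Lama4 had 19.6, 19.2, 25.4, 22.5 and 21.4 CPM in LKO 1 to 5, against 14.0, 15.2, 14.5, 14.5 and 12.4 CPM in control 1 to 5. The lowest LKO library was LKO 2 and the highest control was control 2, and the groups did not overlap. These levels rested on 624 to 949 counts in LKO libraries and 371 to 533 in control libraries. The mean was 21.6 ± 2.49 CPM in LKO and 14.1 ± 1.06 CPM in control (SD, n = 5 each), 1.53-fold higher in LKO, with a log2 fold change of 0.61 (SE 0.09). Control 4 was no exception for this gene, at 0.05 above the other controls on the log2 scale, and LKO 3 lay 0.30 above the other LKO libraries. The log2 fold change was 0.62 without control 4 and 0.54 without LKO 3. Within title code A54, LKO 1 and LKO 2 lay 0.47 above control 1 on the log2 scale. The coefficient of variation of Lama4 was 11.5% in LKO and 7.48% in control, the lowest of the 10 genes in both groups. Choosing a gene because its groups do not overlap favours little spread within groups. The low spread of Lama4, and its steadiness when a library is left out, are therefore descriptions as well.

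**Figure D1:**
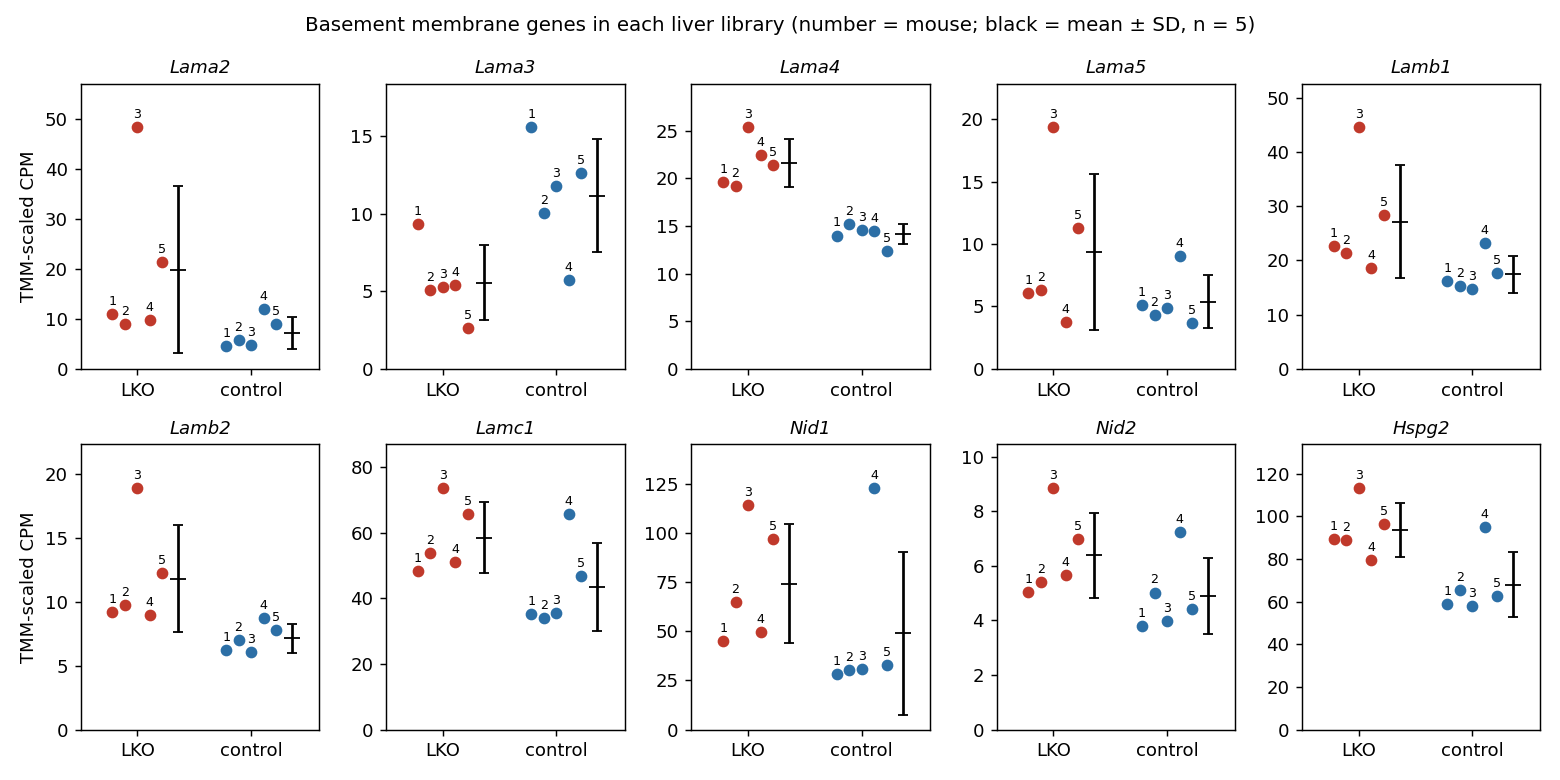
TMM-scaled CPM (vertical axes, each from 0) of the 10 genes in 5 LKO (red) and 5 control (blue) libraries, with the mouse number above each point and the group mean ± SD in black. Lama4 and Lamb2 show no overlap between the groups, Lama3 is the gene with the lower LKO mean, and control 4 and LKO 3 are the high libraries in most other panels.

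The other alpha chain genes behaved unevenly. Lama2, the alpha chain of muscle and mesenchymal laminins, had 11.02, 8.90, 48.3, 9.75 and 21.3 CPM in LKO 1 to 5, against 4.57, 5.73, 4.76, 11.9 and 8.89 CPM in control 1 to 5. LKO 3 was far above the rest and LKO 5 second, while control 4, the highest control, lay above LKO 1, LKO 2 and LKO 4. Its mean was 19.9 ± 16.7 CPM in LKO and 7.17 ± 3.16 CPM in control, a log2 fold change of 1.47 (SE 0.49; edgeR adjusted p = 0.142), or 0.82 without LKO 3. Lama5, an alpha chain of epithelial and vascular basement membranes, had 6.06, 6.34, 19.4, 3.74 and 11.3 CPM in LKO 1 to 5, against 5.10, 4.32, 4.86, 9.03 and 3.65 CPM in control 1 to 5. The groups overlapped from end to end apart from LKO 3 and LKO 5, and LKO 4 lay near the lowest control. The log2 fold change was 0.80 (SE 0.41; edgeR adjusted p = 0.267), 1.07 without control 4 and 0.34 without LKO 3.

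Lama3 went the other way. It encodes the alpha chain of the laminin that anchors epithelia through hemidesmosomes, and it had 9.36, 5.11, 5.30, 5.40 and 2.64 CPM in LKO 1 to 5, against 15.6, 10.05, 11.8, 5.71 and 12.6 CPM in control 1 to 5. LKO 2 to LKO 5 lay below every control, control 4 was the lowest control, and LKO 1 lay above it. The mean was 5.56 ± 2.41 CPM in LKO and 11.2 ± 3.65 CPM in control, 2.01-fold higher in control, with a log2 fold change of -1.01 (SE 0.32; edgeR adjusted p = 0.134). Without control 4 it was -1.17 (edgeR adjusted p = 0.0226), and within A54 the difference was -1.17. Lama3 was thus the one gene of the family for which control 4 was low and the other controls high. Across all 10 libraries its log2 CPM ran against that of each of the other 9, with Pearson's r from -0.83 (Nid1) to -0.61 (Lama5). With each group's mean subtracted, r was weaker, from -0.78 (Nid1) to -0.27 (Lama4), with a median of -0.48. These correlations share libraries and scaling and are given as a description.

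Among the alpha chains, including Lama1, which is not one of the 10 genes, Lama4 gave the largest share when counts were divided by the length of the coding sequence. Its share was 45.5, 50.03, 37.1, 55.5 and 46.8% in LKO 1 to 5, against 39.1, 46.1, 43.0, 40.5 and 35.1% in control 1 to 5. The groups overlapped, with LKO 1 and LKO 3 below control 2, and in LKO 3 the Lama2 share reached 41.1%. The Lama3 share was 3.14 to 11.9% in LKO and 8.68 to 23.7% in control. Lama1 held 3.71 to 21.1% in LKO and 19.2 to 25.7% in control. Lama3 also makes a short transcript, so dividing by its longest coding sequence can understate its share. By undivided counts, Lama4 averaged 33.4 ± 6.10% in LKO and 27.9 ± 3.40% in control, where Lama1 averaged 25.7%. By that measure Lama4 was not the largest in LKO 3 (Lama2, 47.1%), control 1 (Lama3, 29.3%) or control 5 (Lama1, 29.0%).

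**Figure D2:**
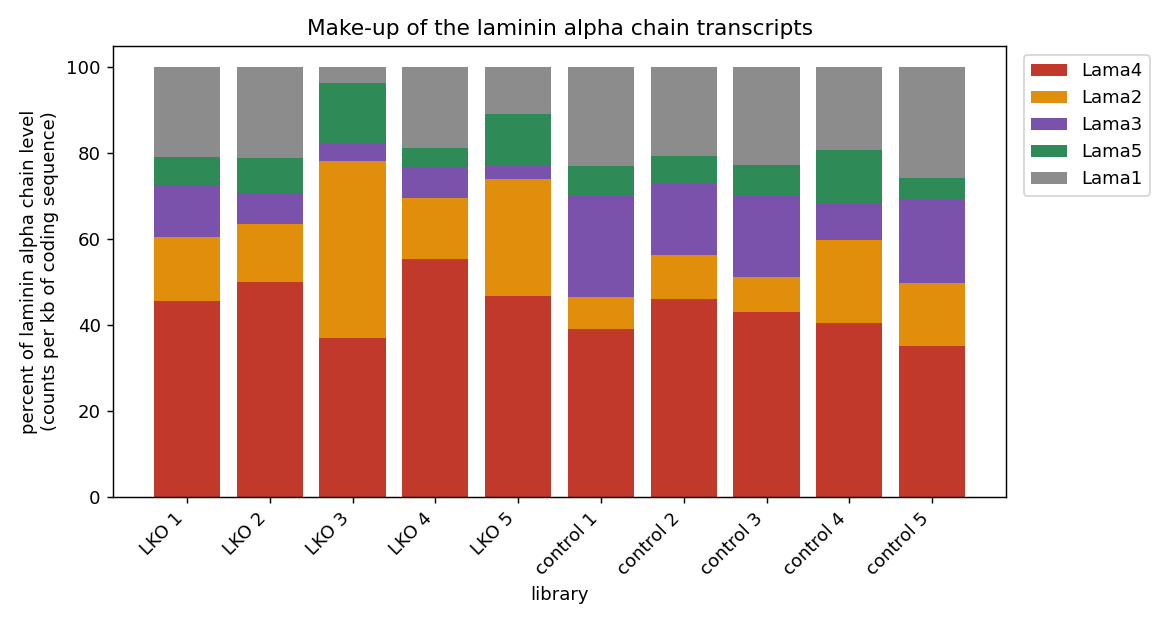
Stacked bars give the percent of laminin alpha chain level (counts per kb of coding sequence, vertical axis) from each of 5 alpha chain genes in the 5 LKO and 5 control libraries. Lama4 is the largest segment in 9 libraries, and in LKO 3 Lama2 (41.1%) exceeds it (37.1%).

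Both beta chain genes had a higher mean in LKO. Lamb2 had 9.17, 9.72, 18.9, 8.96 and 12.2 CPM in LKO 1 to 5, against 6.23, 6.99, 6.04, 8.74 and 7.77 CPM in control 1 to 5. Its groups did not overlap either, though LKO 4 and control 4 lay close together across the gap. The log2 fold change was 0.72 (SE 0.21; edgeR adjusted p = 0.122), 0.48 without LKO 3 and 0.60 within A54. Lamb1, the more abundant beta chain gene, had 22.7, 21.4, 44.6, 18.5 and 28.4 CPM in LKO 1 to 5, against 16.1, 15.3, 14.7, 23.3 and 17.7 CPM in control 1 to 5. Control 4 alone among the controls lay inside the LKO range. For Lamb1 the log2 fold change was 0.64 (SE 0.23; edgeR adjusted p = 0.156), and 0.38 without LKO 3. The ratio of Lamb2 to Lamb1 CPM stayed between 0.40 and 0.48 in LKO and between 0.38 and 0.46 in control, so the pair moved together from library to library.

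The bases before the RefSeq start of each beta chain gene are shown because these genes tracked each other closely, and those of Nid1 because it was the gene that most set control 4 apart. RefSeq windows of GRCm38.p6, a build older than the GRCm39 named in the submitters' processing notes, were found for 6 of the 10 genes (Lama2, Lama5, Lamb1, Lamb2, Nid1 and Hspg2), and the 250 bases up to each start were searched on both strands for the GC box GGGCGG, the CCAAT box CCAAT and the TATA box TATAAA. Capitals mark matches, and no match overlapped another.
Lamb1, chr12:31265043-31265292, plus strand: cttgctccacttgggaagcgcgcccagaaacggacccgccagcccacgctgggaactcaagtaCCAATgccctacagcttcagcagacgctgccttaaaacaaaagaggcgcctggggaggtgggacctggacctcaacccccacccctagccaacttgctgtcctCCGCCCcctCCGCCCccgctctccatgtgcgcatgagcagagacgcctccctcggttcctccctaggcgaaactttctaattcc
Lamb2, chr9:108479612-108479861, plus strand: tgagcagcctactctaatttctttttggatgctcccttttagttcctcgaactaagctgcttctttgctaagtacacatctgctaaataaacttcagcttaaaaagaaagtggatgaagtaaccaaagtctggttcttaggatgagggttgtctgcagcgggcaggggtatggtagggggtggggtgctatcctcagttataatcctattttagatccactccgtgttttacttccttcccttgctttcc
Nid1, chr13:13437352-13437601, plus strand: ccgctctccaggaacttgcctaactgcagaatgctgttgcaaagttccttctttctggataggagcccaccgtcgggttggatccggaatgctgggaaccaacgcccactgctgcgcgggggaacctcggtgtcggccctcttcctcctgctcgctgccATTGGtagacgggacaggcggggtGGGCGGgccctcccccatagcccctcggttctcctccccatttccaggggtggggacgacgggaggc
The Lamb1 window held 2 GC boxes and 1 CCAAT box, with 62.0% G and C and 14 CpG pairs. In the Lamb2 window none of the motifs occurred, and it had 43.6% G and C and 3 CpG pairs. Nid1 had 1 GC box and 1 CCAAT box. Of the other windows, Hspg2 held 5 GC boxes, Lama5 held 4 and Lama2 none. Among all 32851 promoter windows of that length, 32.7% held a GC box, 33.8% a CCAAT box and 12.4% a TATA box, and the median window had 52.4% G and C.

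Lamc1 encodes the gamma chain of most laminins and the one that nidogen binds. It had 48.3, 53.9, 73.6, 51.0 and 65.7 CPM in LKO 1 to 5, against 35.3, 34.0, 35.6, 65.7 and 46.8 CPM in control 1 to 5. Control 4 matched LKO 5, and all other controls lay below every LKO library. The log2 fold change was 0.43 (SE 0.19; edgeR adjusted p = 0.221), and 0.62 without control 4 (edgeR adjusted p = 0.0206). The ratio of Lama4 to Lamc1 CPM was 0.33 to 0.44 in LKO and 0.22 to 0.45 in control, with control 4 the lowest.

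Nid1, the more abundant nidogen gene, had 45.2, 64.8, 114, 49.8 and 97.0 CPM in LKO 1 to 5, against 28.3, 30.5, 30.8, 123 and 32.6 CPM in control 1 to 5. Control 4 was the highest of all 10 libraries, while the other 4 controls lay in a narrow band below every LKO library. With all libraries the log2 fold change was 0.60 (SE 0.44; edgeR adjusted p = 0.436), and without control 4 it was 1.28 (edgeR adjusted p = 0.0136). Nid2 had 5.02, 5.41, 8.85, 5.65 and 6.97 CPM in LKO 1 to 5, against 3.81, 5.02, 3.98, 7.25 and 4.42 CPM in control 1 to 5. Its groups overlapped through control 4, with control 2 level with the lowest LKO library to the digits shown, and the log2 fold change was 0.38 (SE 0.21; edgeR adjusted p = 0.298), or 0.56 without control 4 (edgeR adjusted p = 0.0586). Nid2 overlaps Rtraf in the RefSeq annotation, Rtraf averaged 62.0 CPM, and the sources used here do not give how shared reads were counted.

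Hspg2 had the highest mean CPM of the family in both groups, though Nid1 exceeded it in LKO 3, LKO 5 and control 4. It had 89.4, 89.0, 113, 79.7 and 96.3 CPM in LKO 1 to 5, against 58.7, 65.4, 58.2, 94.9 and 62.6 CPM in control 1 to 5. Control 4 lay inside the LKO range and the other controls below it. The mean was 93.6 ± 12.6 CPM in LKO and 68.0 ± 15.3 CPM in control, a log2 fold change of 0.46 (SE 0.15; edgeR adjusted p = 0.134), and without control 4 it was 0.61 (edgeR adjusted p = 0.00855).

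**Figure D3:**
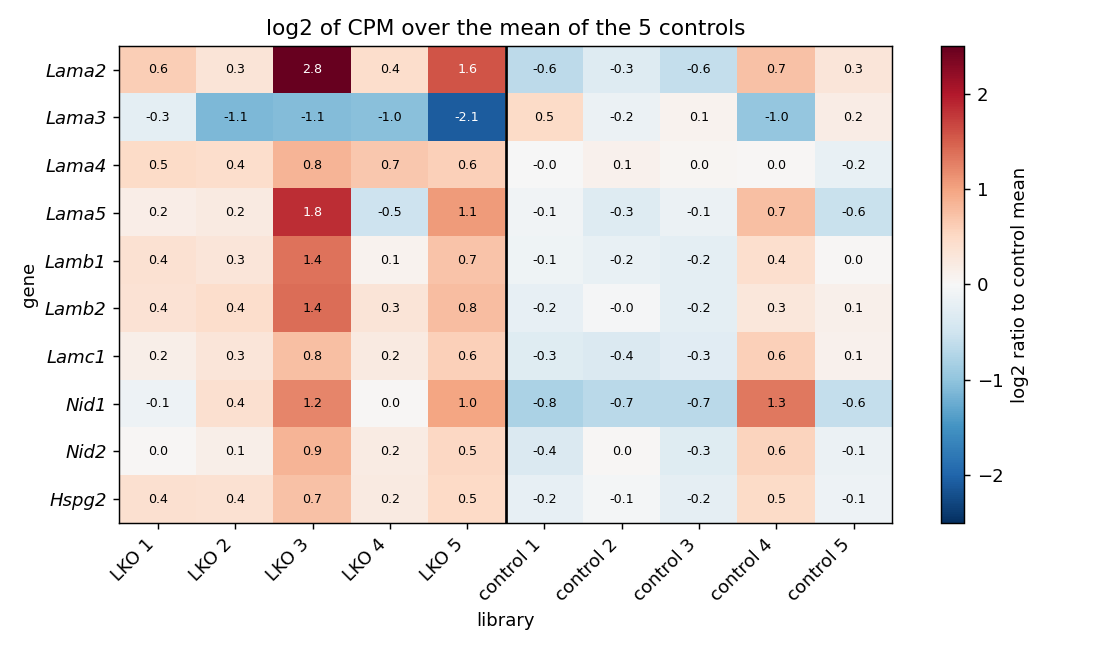
Colour and number give log2 of the CPM of each gene (rows) in each library (columns, LKO left of the line, control right) over the mean of the 5 controls. The row of Lama4 is even within both groups, which its choice by groups without overlap favours. LKO 3 and control 4 are the warm columns for most other genes, and the row of Lama3 has the opposite signs.

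Of the 9 genes other than Lama4, none passed an adjusted p of 0.05 over all genes tested, where 10 of 15226 genes (0.0657%) did, 0.0263% higher and 0.0394% lower (edgeR quasi-likelihood test, two-sided, Benjamini-Hochberg). None passed without LKO 3 (0.0719% of all genes) or with the replicate number as a block (0.0131%). At an unadjusted edgeR p under 0.05 there were 6 of the 9, 5 of them higher in LKO (Lama2, Lamb1, Lamb2, Lamc1 and Hspg2) and Lama3 lower. Among all genes tested, 22.3% had such a p, 12.8% higher and 9.5% lower. With DESeq2, 3 of the 9 passed an adjusted p of 0.05, namely Lama2, Lama3 and Lamb2, where 7.79% of all genes did. With limma voom and quality weights 6 passed (Lama3, Lamb1, Lamb2, Lamc1, Nid1 and Hspg2), where 16.2% of all genes did. Groups without overlap occurred for 1 of these 9, Lamb2, and among all genes for 3.95%, 1.72% higher and 2.23% lower. The median log2 fold change of the 9 was 0.60, against -0.00 over all genes tested.

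Beside the choice of test, control 4 changed the calls. Without it, 7 of the 9 passed an adjusted p of 0.05, all but Lama5 and Nid2, with Lama3 lower and the other 6 higher in LKO, but so did 15.0% of all genes, 10.2% higher and 4.75% lower (edgeR). Leaving out both control 4 and LKO 3 gave the same 7 genes, beside 15.6% of all genes. Control 4 sits near the LKO libraries, so a fit that drops it alone sets the groups further apart. In control 4, 8 of the 10 genes were at their highest among controls, the exceptions being Lama3 and Lama4. In LKO 3, 9 of the 10 were at their highest among LKO libraries, the exception being Lama3. Both libraries stood apart over all genes on the first principal component, and the share of all genes highest in them is not given here. These counts are therefore no result about the family, and the choice of Lama4 disfavours a high control 4. Within A54 the log2 differences of the 10 genes ran from -1.17 (Lama3) to 1.11 (Lama2), 9 of them above 0.

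**Figure D4:**
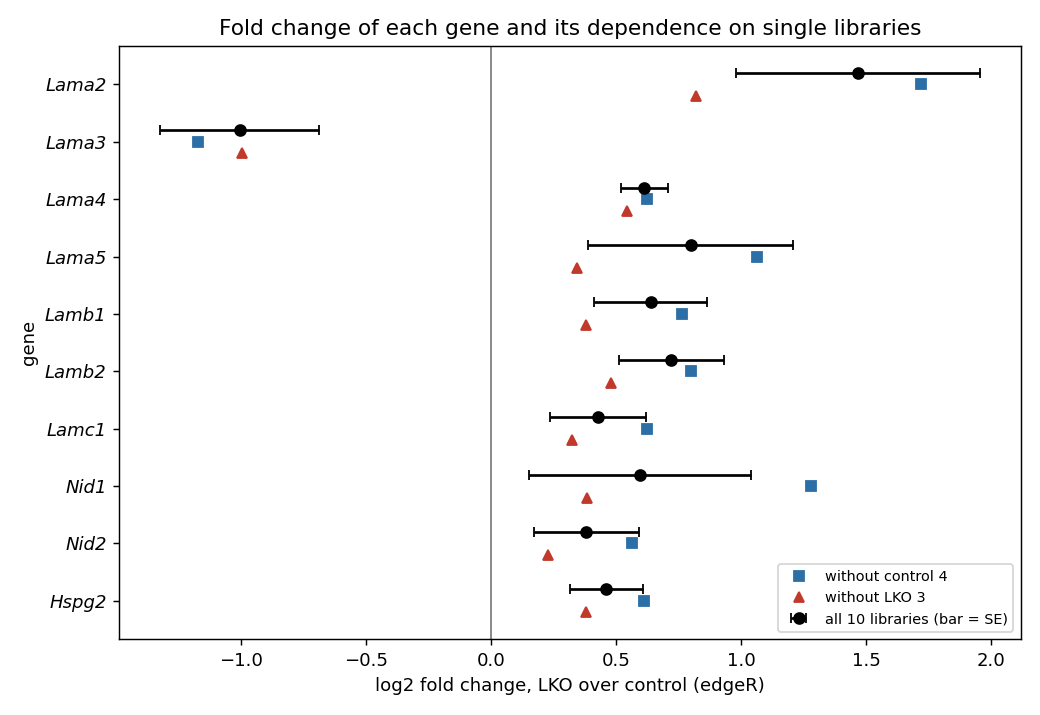
The horizontal axis gives the edgeR log2 fold change, LKO over control, of each gene with all 10 libraries (black, bar = SE), without control 4 (blue squares) and without LKO 3 (red triangles). Lama4, picked for groups without overlap, moves between 0.54 and 0.62, whereas Nid1 moves between 0.39 and 1.28 and Lama2 between 0.82 and 1.72.

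Beneath these shifts the more abundant genes kept the same order of mean level in both groups, whereas the least abundant changed places. Per kb of coding sequence, Nid1 had the highest mean level, 19.9 ± 8.06 CPM per kb in LKO and 13.1 ± 11.1 in control, followed by Lamc1 with 12.1 ± 2.23 in LKO and 9.02 ± 2.79 in control. Hspg2, Lamb1, Lama4 and Lamb2 came next in both groups, at 7.12, 4.93, 3.97 and 2.19 CPM per kb in LKO and 5.17, 3.17, 2.59 and 1.33 in control. Lama5 and Lama3 were lowest in LKO, at 0.84 and 0.56, whereas in control Lama2 (0.77) and Lama5 (0.48) were lowest and Lama3 stood at 1.12. Neighbours in this order whose library ranges did not overlap were Lamc1 and Hspg2 in LKO, Hspg2 and Lamb1 in control, and Lama4 and Lamb2 in both groups. All other neighbours overlapped within their group.

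**Figure D5:**
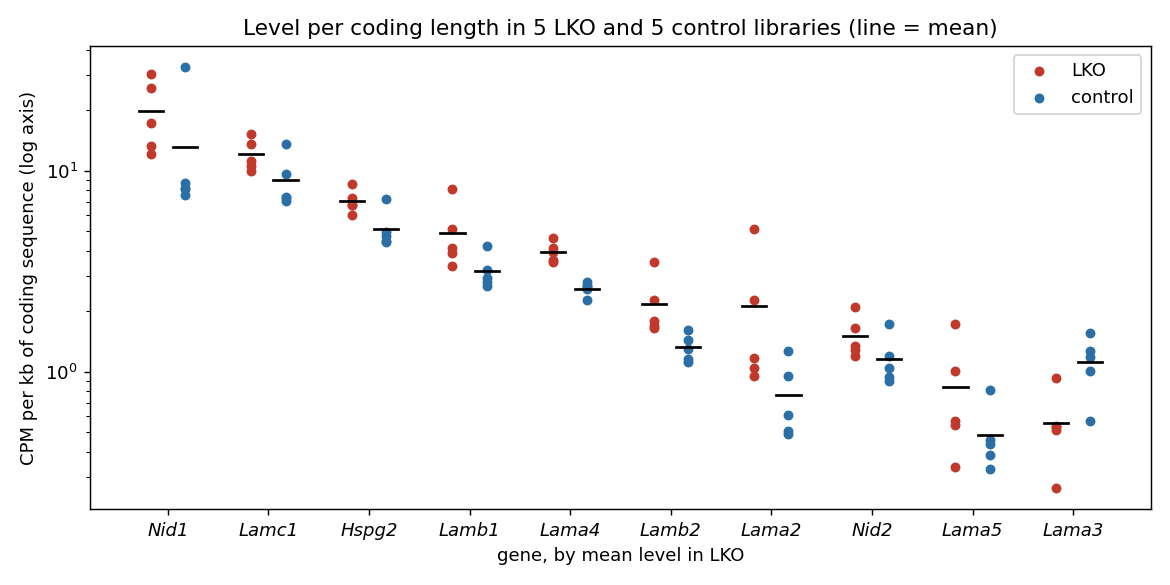
Points give the CPM per kb of coding sequence (vertical log axis) of the 10 genes, ordered by LKO mean, in 5 LKO (red) and 5 control (blue) libraries, and lines give group means. Lama4 stands between Lamb1 and Lamb2 in both groups, and Lama3 is the gene whose mean is lower in LKO, 0.56 against 1.12.

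The genes also differed in how closely they followed one another from mouse to mouse. After each group's mean was subtracted, log2 CPM of Lama2 and Lamb2 correlated at r = 0.98, Lamb1 and Lamb2 at 0.96, Nid1 and Hspg2 at 0.94, and Lamc1 and Nid1 at 0.94 over the 10 libraries. Lama4 reached at most 0.59 with any of the others (Nid2), and its median with them was 0.47. For the other 8 apart from Lama3 that median lay between 0.79 and 0.86. These are descriptions over libraries that share depth and scaling. Lama4 was chosen by groups without overlap, which disfavours a high value in control 4, where 8 of the 10 genes were highest among controls. Its weaker correlations are therefore not set against those of the other genes.

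Among 12314 named genes outside the family with a mean of at least 1 CPM, those most like Lama4 over the 10 libraries by Pearson's r of log2 CPM were Nipal1 (0.96), of a family of magnesium transporters, Ccng2 (0.95), a cyclin gene, Vegfc (0.95), a growth factor for lymphatic vessels, Ybx3 (0.95) and Sqstm1 (0.95), the autophagy receptor gene. Lama4 was picked for groups without overlap, so likeness to it over all 10 libraries favours genes that also differ between the groups. Among those most like Lamc1 were Elmo1 (0.99), the fibrillar collagen genes Col1a2 (0.99) and Col3a1 (0.98), and Aldh18a1 (0.98), of proline synthesis. With group means subtracted, the 5 most like Lama4 were Denn2b (0.97), Ypel2 (0.95), Klhdc8a (0.93), Stam (0.93) and Slc5a3 (0.92), none of them among the 5 above. For Lamc1 they included Ckb (0.99), Elmo1 (0.98), Col1a2 (0.98) and Col3a1 (0.98), of which all but Ckb were also among its first 5 before. These lists are descriptions, and the choice of Lama4 leaves its lists and those of Lamc1 not comparable.

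The other basement membrane genes numbered 41, all tested, and 34 had a log2 fold change above 0. None passed an adjusted p of 0.05 (lowest edgeR adjusted p = 0.0514, Mcam), 19 had an unadjusted edgeR p under 0.05 as higher and 3 as lower in LKO, against 12.8% and 9.5% of all genes, and their median log2 fold change was 0.57. Without LKO 3 the median was 0.32, and without control 4 it was 0.71, with 15 of 41 passing an adjusted p of 0.05 where 15.0% of all genes did. Of the 6 type IV collagen genes, 3 had an unadjusted p under 0.05, all higher, and Col4a1, whose product forms the network that nidogen joins to laminin, averaged 148 ± 57.2 CPM in LKO and 72.0 ± 26.3 CPM in control (log2 fold change 1.04, SE 0.28; edgeR adjusted p = 0.108). Its partner Col4a2 averaged 96.2 ± 29.6 CPM in LKO and 57.2 ± 18.6 CPM in control (log2 fold change 0.75, SE 0.24; edgeR adjusted p = 0.137). In both collagen genes control 4 was the highest control.

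Of 8 laminin receptor genes, 5 had an unadjusted edgeR p under 0.05 as higher and 1 as lower, against 12.8% and 9.5% of all genes. Mcam, which encodes the adhesion molecule CD146 of vessel walls, had 7.003, 8.11, 8.10, 7.79 and 8.35 CPM in LKO 1 to 5, against 4.61, 5.20, 4.96, 5.87 and 5.03 CPM in control 1 to 5. The groups did not overlap, and LKO 3 lay inside the range of the other LKO libraries, with a log2 fold change of 0.62 (SE 0.10; edgeR adjusted p = 0.0514). Groups without overlap occurred for 2 of the 41 other basement membrane genes, Mcam and Tinagl1, both higher in LKO. Among all genes tested, 3.95% had such groups, 1.72% higher. Bcam, a receptor for the Lama5 chain, had a log2 fold change of 1.05 and Itga6, an integrin alpha chain for laminin, one of 1.08 (edgeR adjusted p = 0.142 and 0.157). Log2 fold changes were 0.10 for the integrin beta chain gene Itgb1, -0.05 for the dystroglycan gene Dag1 and -0.36 for the integrin alpha chain gene Itga7 (edgeR adjusted p = 0.632, 0.721 and 0.158).

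Of 9 genes of assembly and cross-linking, 5 had an unadjusted edgeR p under 0.05, all higher in LKO. Over all genes tested, 12.8% were higher and 9.5% lower at such a p. Loxl2, a lysyl oxidase, had a log2 fold change of 0.86, the collagen chaperone gene Serpinh1 one of 1.25, and Pxdn, the peroxidase that cross-links type IV collagen, one of 0.57 (edgeR adjusted p = 0.106, 0.11 and 0.128). Among 14 further basement membrane proteins, 5 were higher and 2 lower at an unadjusted edgeR p under 0.05, beside the same shares of all genes. Tinagl1, a matrix protein of vessel walls, averaged 19.6 ± 2.02 CPM in LKO and 14.0 ± 1.09 CPM in control without overlap (log2 fold change 0.48, SE 0.09; edgeR adjusted p = 0.0766). The lower ones were Fras1, with a log2 fold change of -0.76, and Smoc1, with one of -0.28 (edgeR adjusted p = 0.0999 and 0.125).

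Markers of the cells that make basement membrane varied beside these genes, and their part in the results was not tested. Summed over 10 markers of sinusoidal endothelium, CPM ran from 425 to 706 in LKO and from 458 to 524 in control, with LKO 3 the lowest LKO library and control 4 the lowest control. Over 10 markers of endothelium in general it ran from 253 to 288 in LKO and from 203 to 249.3 in control, without overlap, and in each of these lists 10 of 10 had a log2 fold change above 0 (median 0.23 for the sinusoidal list and 0.26 for the general one). Pecam1, the platelet and endothelial adhesion molecule gene, averaged 37.2 ± 4.24 CPM in LKO and 28.9 ± 1.58 CPM in control. Set against Pecam1, Lama4 gave ratios of 0.51 to 0.68 in LKO and 0.42 to 0.54 in control, which overlapped. As a percent of the summed markers of endothelium in general it gave 6.85 to 10.1% in LKO and 5.62 to 7.16% in control, which also overlapped. These ratios were chosen after the values were seen.

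Stellate cell and portal fibroblast markers summed to 518 to 790 CPM in LKO and 420 to 691 CPM in control, with 9 of 10 above 0 in log2 fold change (median 0.55), LKO 3 the highest LKO library and control 4 the highest control. The 8 cholangiocyte markers summed to 40.7 to 384 CPM in LKO and 36.6 to 174 CPM in control, again highest in LKO 3 and control 4. Spp1, which macrophages also express, gave 316 CPM of it in LKO 3 and 145 CPM in control 4. Cftr was at 0 in control 1, and 7 of the markers were tested (median 1.44). Recruited macrophage markers (6, Spp1 included) summed to 170 to 725 CPM in LKO and 68.7 to 404 CPM in control, with the same libraries highest and a median of 1.37. The 8 hepatocyte markers summed to 39130 to 59688 CPM in LKO and 45595 to 80877 CPM in control, all with a log2 fold change below 0 (median -0.48), lowest in LKO 3 and control 4. Smooth muscle markers summed to 13.6 to 37.7 CPM in LKO and 12.0 to 22.6 CPM in control, and mesothelial markers to 3.18 to 16.1 CPM in LKO and 3.68 to 9.01 CPM in control. Kupffer cell markers summed to 156 to 270 CPM in LKO and 132 to 184 CPM in control, with control 4 the lowest control. No defining marker of these lists was at 0 in all libraries.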

How the data were processed

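The authors deposited raw whole-number counts in a single table, with 1 row for each NCBI Gene number and 1 column for each library. Per the labels' protocols, RNA from frozen liver was freed of ribosomal RNA, made into stranded libraries and read from 1 end for 101 cycles. GRCm39, DESeq2 and bcl2fastq 2.20 appear in the submitters' processing notes. The sources used here do not give the aligner, counter, strand setting or annotation.

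All 10 columns were matched to samples by the code in the title. Symbols came from RefSeq (GRCm38.p6), which matched 25275 of 27179 genes. Every 2 libraries of a group differed by more than sampling noise (lowest chi-square per degree of freedom 32.1 in LKO and 47.5 in control). In R 4.3.3 with edgeR 4.0.16, filterByExpr, TMM and the legacy quasi-likelihood F test were used with genotype as the only term, two-sided, and the Benjamini-Hochberg adjustment covered 15226 genes (threshold 0.05). The test was checked on simulated counts. The SE of a log2 fold change is its size over the root of F. P-values set the difference between groups against the spread between mice within groups, with estimates of spread shared across genes. They also carry any difference between title codes, since A55 holds controls only and A67 LKO only. Coding lengths are the longest coding sequence per symbol in GENCODE M21 (GRCm38), and likeness used log2 CPM with a prior count of 2. Named were all 10 genes, Lpcat3, genes of the lists and the 5 most alike, apart from a few that are not reported here. The members and lists were chosen with earlier results of these data known.

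Alternatives were other scalings, filters and tests (DESeq2 1.42.0, limma 3.58.1 voom), a block for replicate number, a covariate for title code, leaving out each library and, added after seeing the data, leaving out control 4 with LKO 3. Figures were drawn with matplotlib 3.10.9.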

Additional observations from a re-analysis of the deposited data

Results flagged for a closer look

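Of 20 groups of 5 libraries (10 genes in LKO and in control), 3 held a library far from the others, and all of them were control 4. Far means a gap to the next library above 0.71 of the group's range, Dixon's critical value for 5 samples. For independent groups chance gives about 1 in 20. These genes share their mice and correlate, so the 3 are not separate events and cannot be set against that rate. For Nid1 it stood at 122.9 CPM with the next control at 32.6 CPM, a gap of 0.95 of the group's range. For Hspg2 it stood at 94.9 CPM with the next control at 65.4 CPM, and for Lama5 at 9.03 CPM with the next control at 5.10 CPM. Lama4 in the same library had 14.5 CPM, inside the range of the other controls, which its choice by groups without overlap favours. In LKO no library passed this cut for any of the 10 genes. For Lama2, however, LKO 3 stood at 48.3 CPM with the next LKO library, LKO 5, at 21.3 CPM.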

How the results depend on the processing

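All 10 genes kept the direction of their log2 fold change under each of the 22 alternatives. For Lama4 the value ran from 0.47 (title code A54 alone, and also with the code as a covariate) to 0.86 (total counts only, which moved the median of all genes by 0.24). Of the 9 other genes, 0 passed an adjusted edgeR p of 0.05 with all libraries, 3 with DESeq2, 6 with limma voom with quality weights, 7 without control 4 and LKO 3, and 0 to 7 with 1 library left out, where 7 came from control 4. At an unadjusted p under 0.05, 6 passed, and 0 with the title code as a covariate. Of the 41 other basement membrane genes 22 had an unadjusted p under 0.05, 3 with the code as a covariate, and 14 (without control 1 or LKO 3) to 28 (without control 4) with 1 library left out. The background moved too: of the genes tested with all libraries, 3402 (22.3%) had such a p, against 2628 without LKO 3 and 5046 without control 4. That count over all genes is not given here for the code as a covariate or for the replicate block. Over all genes, 10 were called, 31 with no filter, 20 with at least 1 CPM in 5 libraries, 1186 with DESeq2, 2460 with limma voom, 0 with the code as a covariate, 2363 without control 4 and LKO 3, and 2 (without control 1, control 3, LKO 4 or LKO 5) to 2296 (without control 4) with 1 library left out. The cause of these differences was not tested. Deviations of same-numbered mice from their group means correlated from -0.40 to 0.42, and of the LKO mice only number 1 was most like the control of its number. LKO 1 and LKO 2 were both most like control 1, which shares their code A54. The labels state no pairing, and the main fit did not pair the mice by number. With the replicate block 2 genes were called, 0 of them among the 9, of which 6 had an unadjusted p under 0.05. Depth limits the low genes most, with 101 counts for Nid2 and 90 for Lama3 in their lowest libraries.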

Other observations

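Laminin chain genes outside the family described above included Lamc3, Lamb3 and Lama1. Lamc3, which encodes a gamma chain, had 0.91, 1.64, 16.1, 1.58 and 9.22 CPM in LKO 1 to 5, against 1.32, 1.37, 0.94, 4.77 and 1.35 CPM in control 1 to 5. LKO 3, LKO 5 and control 4 were the high libraries, and LKO 1 lay below every control. Its log2 fold change was 1.59 (SE 0.79; edgeR adjusted p = 0.252), and 0.77 without LKO 3. Lamb3, the beta chain partner of the Lama3 chain, averaged 8.33 ± 2.14 CPM in LKO and 7.29 ± 3.63 CPM in control, and Lama1 averaged 10.9 ± 4.47 CPM in LKO and 13.1 ± 1.59 CPM in control.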
